A study of Mus musculus with 24 samples.

Results

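Small nucleolar RNAs (snoRNAs) were followed across spermatogonia sorted from mice at postnatal day 7. Members were all genes whose symbol begins with Snord or Snora, that had a row in both expression tables and a mean of at least 1 FPKM (read fragments scaled to transcript length in kilobases and to library depth) over the 12 libraries of each table. This left 107 genes, 71 C/D (Snord) and 36 H/ACA (Snora), of 21532 genes held by both tables. The tables held 110 and 108 rows with such symbols, and 4 of these were in only 1 table (Snord61, Snord38a, Snord90 and Snord23, at means of 1.80, 2.64, 1.22 and 2.77 FPKM). No row in both tables fell under the threshold, and the lowest member was Snora19, at 1.77 FPKM in the Zbtb16 table and 1.68 FPKM in the Sox3 table.

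In both sets undifferentiated spermatogonia (uSPG) were taken as THY1+ cells and differentiating spermatogonia (dSPG) as KIT+ cells on magnetic beads, and each genotype and fraction has 3 libraries, 24 in all. In the Zbtb16 set, null mice homozygous for the luxoid allele (Zbtb16 lu/lu) were compared with WT littermates. In the Sox3 set, mice lacking Sox3 in germ cells (cKO, through a Cre driven by the germ cell gene Ddx4) were compared with WT controls. Each isolation pooled the testes of 3 mice, so a library stands for a pool, and the p-values measure the spread between pools.

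snoRNAs guide the chemical modification of other RNAs inside the nucleolus. C/D snoRNAs pair with ribosomal RNA through sequences next to their C and D boxes and direct 2′-O-methylation by fibrillarin (Fbl), and H/ACA snoRNAs direct pseudouridylation by dyskerin (Dkc1). A few of either class are needed instead to cut the ribosomal RNA precursor. In mammals most are released from introns of host genes, many of which encode ribosomal proteins, and a group of C/D snoRNAs comes from the imprinted Snrpn region, where only the paternal copy is active.

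The sequences of the members that the comparisons below turn on are given 5′ to 3′ from the GENCODE M21 transcripts of GRCm38 (the assembly also called mm10), written as DNA. Capitals mark the C box (TGATGA, starting and ending within the first 26 bases) and the D box (CTGA, within the last 16 bases) of C/D members, and the ACA 3 bases before the end of H/ACA members. Snord64 (chr7:59978808-59978874, minus strand) and Snord107 (chr7:59980876-59980945, minus strand) lie within the gene named Snrpn in the tables. Snord14c, Snord14d and Snord14e (chr9:40803583-40803668, chr9:40803995-40804080 and chr9:40804748-40804837, plus strand) lie within Hspa8. Snora61 (chr4:132310240-132310369, plus strand) lies within Snhg12. Snora17 (chr2:26639190-26639321, minus strand) lies wholly inside no gene that GENCODE M21 annotates on its strand, so no host was assigned to it here. Hosts in other annotations were not looked for.
Snord64: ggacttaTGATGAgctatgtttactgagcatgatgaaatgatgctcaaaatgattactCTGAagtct
Snord107: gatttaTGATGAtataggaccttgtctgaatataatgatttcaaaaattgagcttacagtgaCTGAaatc
Snord14c: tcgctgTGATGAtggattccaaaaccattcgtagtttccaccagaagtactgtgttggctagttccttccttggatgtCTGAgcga
Snord14d: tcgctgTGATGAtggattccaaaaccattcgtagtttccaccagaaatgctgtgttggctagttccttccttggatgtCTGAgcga
Snord14e: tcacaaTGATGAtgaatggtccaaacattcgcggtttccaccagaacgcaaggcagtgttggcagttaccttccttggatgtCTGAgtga
Snora61: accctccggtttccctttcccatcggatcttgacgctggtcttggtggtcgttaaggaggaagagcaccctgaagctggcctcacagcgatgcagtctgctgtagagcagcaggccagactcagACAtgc
Snora17: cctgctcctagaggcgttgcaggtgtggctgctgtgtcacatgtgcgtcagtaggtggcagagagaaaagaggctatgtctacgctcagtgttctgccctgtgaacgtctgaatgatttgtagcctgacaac

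Snord14c and Snord14d were identical at 84 of 86 bases, and Snord14e matched either at 74 of 93 aligned positions. In the windows given, the C box letters were in 45 of 71 C/D members and in 0 of 36 H/ACA members, and the D box letters in 67 of 71 and 2 of 36. The ACA letters stood 3 bases before the end in 29 of 36 H/ACA members and in 0 of 71 C/D members. Snora17 does not have them there and is printed without capitals. C/D members were 64 to 238 bases long (median 80) and H/ACA members 121 to 205 bases (median 132).

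These lengths set the limits of the values. Reads were 50 bases long, so a short gene collects few of them: the median member held a mean of 69.7 reads per Zbtb16 library and 34.8 per Sox3 library, as recovered from the steps of the FPKM values, and 2 and 13 members held means under 10. The alignment let a read stand at many positions. Of the 107 members, 3 C/D and 12 H/ACA share a stretch of 50 bases with an annotated transcript elsewhere, among them Snora73a with Snora73b, so reads that lie wholly within such a stretch cannot be told apart from those of the other copy. Moreover, 48 members lie wholly and 8 partly inside an annotated exon of their host, where reads of the snoRNA, its precursor and the host transcript cannot be told apart. Since libraries were made after ribosomal RNA depletion, reads of an unspliced host transcript may also fall on members in its introns.

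Libraries of the Zbtb16 set held an estimated 25.95 to 35.19 M (mega) reads, and those of the Sox3 set 11.02 to 31.89 M. Zbtb16 was at 41.97 to 58.7 FPKM in WT THY1+ and 15.6 to 18.2 FPKM in null THY1+ libraries, and at 14.4 to 23.0 and 6.11 to 6.69 FPKM in WT and null KIT+ libraries. Sox3 was at 6.28 to 24.4 FPKM in the 6 WT libraries of its set and at 0.00 to 0.08 FPKM in the 6 cKO libraries. The sorting markers go against the labels of the Sox3 WT libraries: where the label reads THY1+, Kit was at 45.6 to 80.1 FPKM and Thy1 at 0.21 to 0.25 FPKM, and where it reads KIT+, Kit was at 12.97 to 18.8 FPKM and Thy1 at 3.59 to 4.06 FPKM. These libraries were not regrouped and are called "labelled THY1+" and "labelled KIT+". The cKO libraries carried the markers of their labels.

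H/ACA snoRNAs were among the members highest in FPKM. The highest were Snora73a and Snora73b, which take part in cutting the ribosomal RNA precursor and lie in Snhg3, at means of 1241 and 839 FPKM over the Zbtb16 set. Snora74a, Snora78 and Snora23 followed at 634, 165 and 136 FPKM. Snora73a ranged from 985 to 1156 FPKM in WT THY1+ and from 1197 to 1336 FPKM in WT KIT+ libraries, so these groups did not overlap.

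The highest C/D members were Snord15b and Snord17 at 564 and 465 FPKM, Snord22 at 340 FPKM, Snord32a at 126 FPKM and Snord15a at 97.6 FPKM. The median member stood at 24.3 FPKM in the Zbtb16 set and 18.9 FPKM in the Sox3 set. The 9 C/D members over 100 bases had a median of 41.1 FPKM and the 62 shorter ones a median of 22.6 FPKM. The order of members was close between the tables (Spearman's rho 0.95 across 107 genes, a description, since both tables share gene lengths and sequence). Levels between genes are compared as FPKM, a scale per length. How fully RNAs this short entered the libraries was not measured, so FPKM of genes of unlike length need not rank their molecules.

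Within a group, members varied between libraries by a median coefficient of variation of 17.6% to 20.1% in the Zbtb16 groups and 21.1% to 28.8% in the Sox3 groups. Counting error alone, as 1 over the square root of the reads, gave medians of 11.7% to 12.8% and 15.4% to 20.1%.

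Summed over members, H/ACA FPKM was 3388 ± 199 in WT THY1+ and 4242 ± 143 in WT KIT+ libraries (mean ± SD, n = 3 here and below), and the 2 groups did not overlap. As a share of all FPKM in the table they did overlap, at 0.661%, 0.745% and 0.671% in WT THY1+ and 0.694%, 0.800% and 0.757% in WT KIT+ libraries. In null mice the sums were 3750 ± 478 and 4390 ± 239, with ranges of 3292 to 4246 and 4116 to 4557. Summed C/D FPKM was 3129 ± 113 in WT THY1+, 3520 ± 304 in WT KIT+, 3350 ± 748 in null THY1+ and 3319 ± 284 in null KIT+ libraries. Among null THY1+ libraries replicate 1 stood highest, at 4153 against 2674 and 3223. In the Sox3 set the 3 cKO THY1+ libraries had H/ACA sums of 1560 to 1632 and the cKO KIT+ libraries of 2215 to 3595. The WT libraries labelled THY1+ spread widely, from 1799 to 4637, and overlapped those labelled KIT+, at 1352 to 2541. The 3 highest genes of a library held 58.5% to 71.7% of its H/ACA sum and 23.3% to 45.1% of its C/D sum. The comparisons below therefore use each gene's own change.

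**Figure D1:**
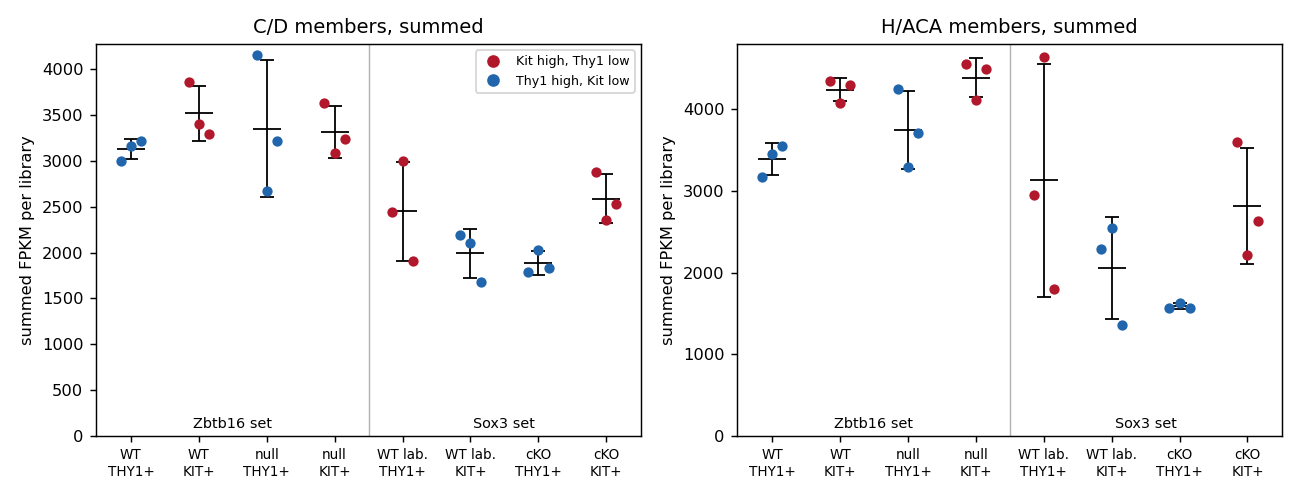
Summed FPKM of the 71 C/D (left) and 36 H/ACA members (right) in each library, by group. Points are libraries, bars the mean ± SD of 3; red marks libraries with high Kit and low Thy1, blue the reverse. H/ACA sums in the Zbtb16 set were 3166 to 3550 in WT THY1+ and 4080 to 4350 in WT KIT+ libraries.

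Loss of ZBTB16 gave few snoRNA calls in the fit used here, which leaves replicate numbers out. In THY1+ uSPG a single member passed the test (limma, adjusted p of at most 0.05 and at least 1.5-fold), Snord64, which rose. This is 1 of 107 members beside 3.98% of all genes tested (2.71% higher, 1.26% lower). In KIT+ dSPG the only call was again Snord64, beside 0.259% of all genes (0.192% higher, 0.067% lower). Snord64 is a C/D snoRNA of the Snrpn region with no assigned ribosomal target.

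Snord64 stood at 7.93, 18.4 and 7.14 FPKM in the WT THY1+ libraries and at 79.5, 44.4 and 42.6 FPKM in the null THY1+ libraries (11.2 ± 6.27 and 55.5 ± 20.8). All 3 null libraries lay above all 3 WT libraries. The log2 change was 2.38 ± 0.41 (SE; limma adjusted p = 0.00873). These values rest on 16, 37 and 15 reads in WT and 150, 82 and 87 reads in null libraries. In KIT+ dSPG the values were 2.09, 5.51 and 3.54 FPKM in WT and 23.0, 14.99 and 17.0 FPKM in null libraries, again without overlap, at 4 to 13 and 30 to 40 reads. The log2 change was 2.35 ± 0.41 (limma adjusted p = 0.0427). When each library was left out in turn, this second call was lost for 10 of the 12 and held without WT THY1+ replicate 2 or WT KIT+ replicate 2, with changes of 2.004 to 2.68. The genotype change did not differ detectably between the fractions (interaction -0.03 ± 0.57, limma adjusted p = 0.985).

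Snord107, its neighbour in the same gene, is a further C/D snoRNA of the imprinted region. It stood at 2.85, 4.75 and 5.47 FPKM in WT THY1+ and at 14.7, 16.6 and 17.8 FPKM in null THY1+ libraries, from 6 to 12 and 29 to 38 reads. The groups did not overlap, and the log2 change of 1.93 ± 0.52 missed the threshold (limma adjusted p = 0.0568). It passed with library medians centred (adjusted p = 0.0457), with a pseudocount of 1 (0.0137) and with only the compared groups fitted (0.0122), and in 2 of the 12 fits that each left out 1 library. In KIT+ dSPG Snord107 was at 0.50 to 3.39 FPKM in WT and 1.43 to 3.35 FPKM in null libraries, which overlapped.

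The host row named Snrpn (ENSMUSG00000000948, which GENCODE M21 calls Gm38393; chr7:59974149-60005064, 5216 exonic bases) moved in the same direction. It stood at 6.20, 5.19 and 8.35 FPKM in WT THY1+ and 19.3, 16.8 and 21.1 FPKM in null THY1+ libraries, without overlap. Its log2 change was 1.54 ± 0.17 (limma adjusted p = 0.000896) in THY1+ uSPG and 0.78 ± 0.17 (adjusted p = 0.12) in KIT+ dSPG. Both snoRNAs lie in annotated exons of this row, so their reads can also count towards it. Snord64 had 2.92 ± 1.07 times the FPKM of Snrpn in null THY1+ and 1.89 ± 1.44 times in WT THY1+ libraries. The ratio of Snord107 to Snrpn was 0.86 ± 0.11 and 0.68 ± 0.23. Among other genes of the imprinted region, looked up after the values of Snord64 were seen, none of Ube3a, Ndn, Magel2, Mkrn3 and Peg12 was called in either genotype comparison, with log2 changes of -0.42 to 0.28 in THY1+ uSPG. Snord115 and Snord116, the large clusters of this region, were not analysed here.

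**Figure D2:**
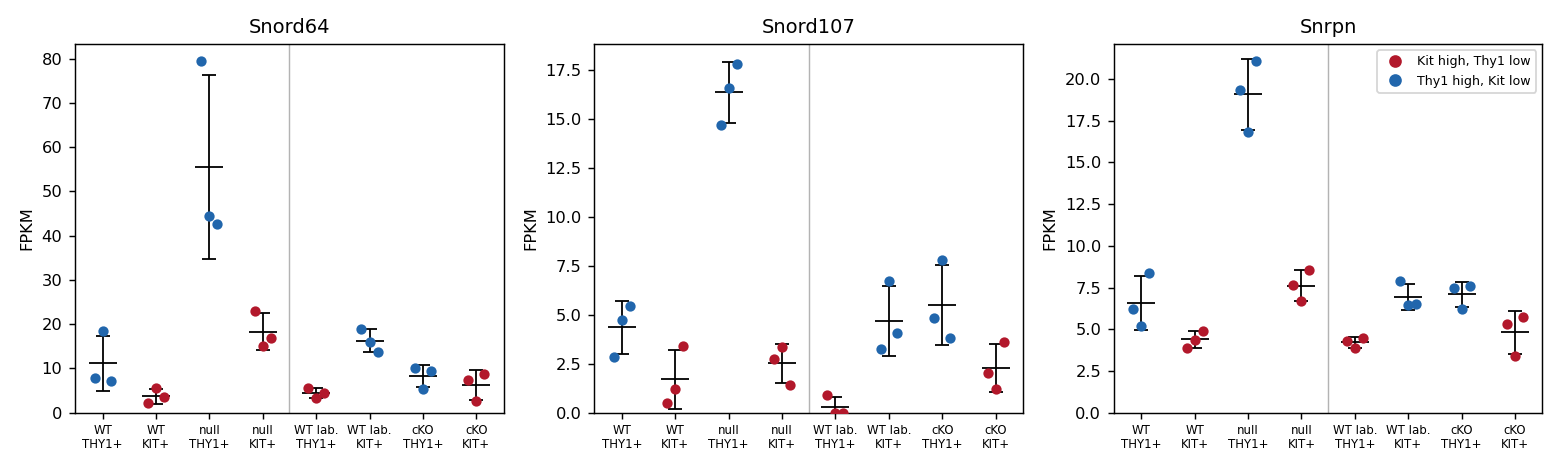
FPKM of Snord64, Snord107 and the host row Snrpn in each of the 24 libraries, by group. Points are libraries and bars the mean ± SD of 3; the grey line parts the Zbtb16 set (left) from the Sox3 set, and the null THY1+ libraries stand highest in each panel.

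Over all 107 members, Snord64 and Snord107 included, values in null THY1+ uSPG lay slightly higher than in WT. The log2 change was above 0 for 81 of 107, beside 46.7% of all genes tested, with medians of 0.15 for C/D, 0.12 for H/ACA and -0.03 for all genes. No overlap between the groups was seen for 11 members, Snord64 and Snord107 among them, all higher in null, beside 15.5% of all genes that were higher and 14.1% that were lower without overlap. The macrophage markers, which mark other cells of the fraction, summed to 919 to 1066 FPKM in WT THY1+ and 427 to 823 FPKM in null THY1+ libraries. The germ cell markers summed to 988 to 1210 and 1162 to 1529 FPKM. Their part in the change was not tested. In KIT+ dSPG 52 members were above 0, beside 51% of all genes, with a median of -0.02. There 9 members were higher and 8 lower without overlap, beside 8.73% and 8.77% of all genes. For the interaction limma called 0 members, beside 0.0313% of all genes (0.00447% higher, 0.0268% lower). An unadjusted p under 0.05 was seen for 7 of 107 members, beside 5014 of 22374 genes. The interaction was above 0 for 29 of 107 members, beside 50.4% of all genes.

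The second question is how snoRNAs differ between KIT+ dSPG and THY1+ uSPG. In WT of the Zbtb16 set 11 members passed the test, 9 higher and 2 lower in KIT+, beside 21.2% of all genes. In null mice 13 passed, 9 higher and 4 lower, beside 29.2%. In Sox3 cKO mice 17 passed, all higher in KIT+, beside 22.7%. The share of members called was thus below that of all genes in each, at 10.3%, 12.1% and 15.9%. Calls by direction were 7.21%, 13.2% and 10.5% of all genes higher and 14%, 16% and 12.2% lower. Without overlap between the groups, 28 members were higher and 1 lower in WT, beside 18.5% and 24.1% of all genes. In null mice the numbers were 14 and 6, beside 21.3% and 27.3%, and in cKO mice 33 and 1, beside 21.7% and 22.8%.

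By direction, H/ACA members leaned to one side. They were higher in KIT+ for 33 of 36 in WT, 26 of 36 in null and 35 of 36 in cKO mice, with median log2 changes of 0.38, 0.17 and 0.63, beside medians of all genes of -0.03, -0.05 and -0.02. Of all genes 47.6%, 46.1% and 48.4% were higher. C/D members were higher for 55, 36 and 55 of 71, with medians of 0.21, 0.00 and 0.37. Without null KIT+ replicate 1 the C/D median in null mice was -0.13. With library medians centred, 22 of 36 H/ACA and 30 of 71 C/D members were higher in null mice, with medians of 0.11 and -0.06. The H/ACA counts in WT and cKO mice were then 33 and 35 of 36. In the Sox3 WT libraries, whose markers are reversed, 34 of 36 H/ACA and 56 of 71 C/D members were lower in those labelled KIT+, with medians of -0.54 and -0.27. Of all genes 51.9% were higher there. Without overlap 4 members were higher and 14 lower, beside 22.8% and 17.8% of all genes. These 4 comparisons share no library. H/ACA members were higher in the libraries with high Kit in all 4 for 24 of 36 and lower in all 4 for 0. C/D members did so for 30 and 5 of 71, and all genes tested in both tables for 26.5% and 31.4%. The difference between the classes was not tested.

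**Figure D3:**
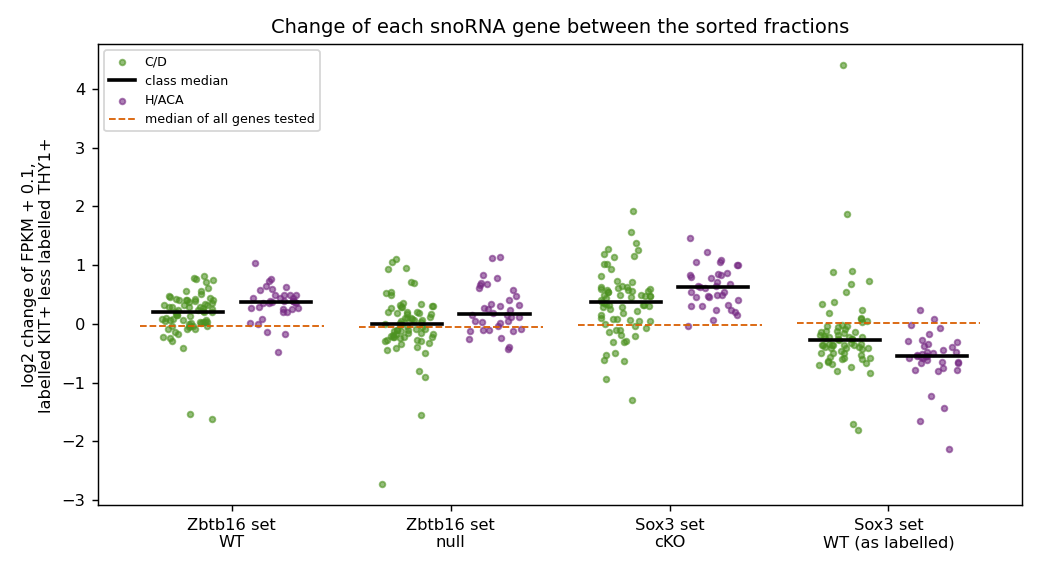
log2 change of FPKM + 0.1 of each member between the fractions, labelled KIT+ less labelled THY1+, in 4 comparisons that share no library. Points are genes (green C/D, purple H/ACA), black bars the class medians and dashed lines the median of all genes tested; H/ACA medians were 0.38, 0.17, 0.63 and -0.54.

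These are bulk samples, so fewer cells of a type and less RNA per cell cannot be told apart, and the fractions held other cells. Macrophage markers (12 genes with values) summed to 427 to 1066 FPKM in the THY1+ libraries of the Zbtb16 set and to 6.8 to 15.9 FPKM in its KIT+ libraries. Leydig cell markers (8 genes), those of the steroid-producing cells, went the other way, from 57.5 to 134 FPKM in THY1+ to 1308 to 3387 FPKM in KIT+. In the Sox3 set macrophage markers reached 1105 to 1415 FPKM in libraries with high Thy1 and 7.8 to 9.8 FPKM in those with high Kit, and Leydig markers 73.3 to 123 and 1339 to 5274 FPKM. T cell markers stayed at or below 25.2 FPKM in sum. The part of these cells in the snoRNA changes was not tested.

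Snora17, an H/ACA snoRNA, was called in all 4 fraction comparisons, each time higher where Kit was high. It stood at 13.7, 17.4 and 15.7 FPKM in WT THY1+ and 35.8, 29.2 and 31.2 FPKM in WT KIT+ libraries. In null mice it was at 17.0, 11.3 and 14.5 FPKM in THY1+ and 36.9, 31.5 and 25.5 FPKM in KIT+. The groups did not overlap in either genotype. The log2 changes were 1.04 ± 0.17 (limma adjusted p = 0.000895) and 1.13 ± 0.17 (adjusted p = 0.000324).

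In Sox3 cKO mice Snora17 rose from 11.5, 9.21 and 11.7 FPKM in THY1+ to 31.0, 20.8 and 24.5 FPKM in KIT+ (log2 change 1.22 ± 0.33, adjusted p = 0.0176). The Sox3 WT values were 35.0, 37.8 and 17.7 FPKM under the label THY1+ and 13.7, 13.6 and 6.19 FPKM under KIT+, a log2 change of -1.44 ± 0.33 (adjusted p = 0.00823). Null and WT did not differ by the test in either fraction (log2 changes of -0.14 and -0.05, adjusted p = 0.643 and 0.91). The FPKM steps of Snora17 did not give whole reads at its annotated length, so the length behind its FPKM values may differ from that of the sequence above.

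The Snord14 family guides methylation of the small subunit rRNA and takes part in its processing. Snord14c was called higher in KIT+ in WT, null and cKO mice, and Snord14d and Snord14e in null and cKO. In null mice Snord14e stood at 32.3, 33.5 and 26.9 FPKM in THY1+ and 50.9, 57.3 and 70.3 FPKM in KIT+ libraries (log2 change 0.94 ± 0.13, limma adjusted p = 0.00023). Snord14c went from 33.4, 26.2 and 23.6 FPKM to 47.9, 61.1 and 50.6 FPKM (0.94 ± 0.22, adjusted p = 0.00506). Snord14d went from 55.3, 38.0 and 32.4 FPKM to 67.2, 87.6 and 104 FPKM (1.06 ± 0.25, adjusted p = 0.00561). None of these groups overlapped.

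In WT of the Zbtb16 set Snord14c rose from 17.8, 20.9 and 18.2 FPKM to 22.4, 34.4 and 44.9 FPKM (0.78 ± 0.22, adjusted p = 0.0191). The changes of Snord14d and Snord14e there were 0.44 and 0.32 (adjusted p = 0.206 and 0.0948). In cKO mice the changes of the 3 genes were 1.26, 1.16 and 1.57 (adjusted p = 0.0375, 0.0412 and 0.0356). The Sox3 WT libraries overlapped for all 3, with changes of -0.36, -0.26 and -0.33. These 3 lie wholly inside annotated exons of their host. The host mRNA, Hspa8, which encodes a constitutive heat shock protein, stood at 109 ± 14.7 and 108 ± 11.6 FPKM in the THY1+ and KIT+ libraries of WT mice. In null mice it was at 119 ± 12.5 and 112 ± 18.2 FPKM. Its log2 changes between the fractions were -0.01 in WT, -0.10 in null and 0.10 in cKO mice, none of them called. The ratio of Snord14e to Hspa8 was 0.26 ± 0.06 in null THY1+ and 0.54 ± 0.07 in null KIT+ libraries. Snord14a, the relative in Rps13, was called in WT only (0.75 ± 0.20, adjusted p = 0.017), and whether it differed from the others was not tested.

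**Figure D4:**
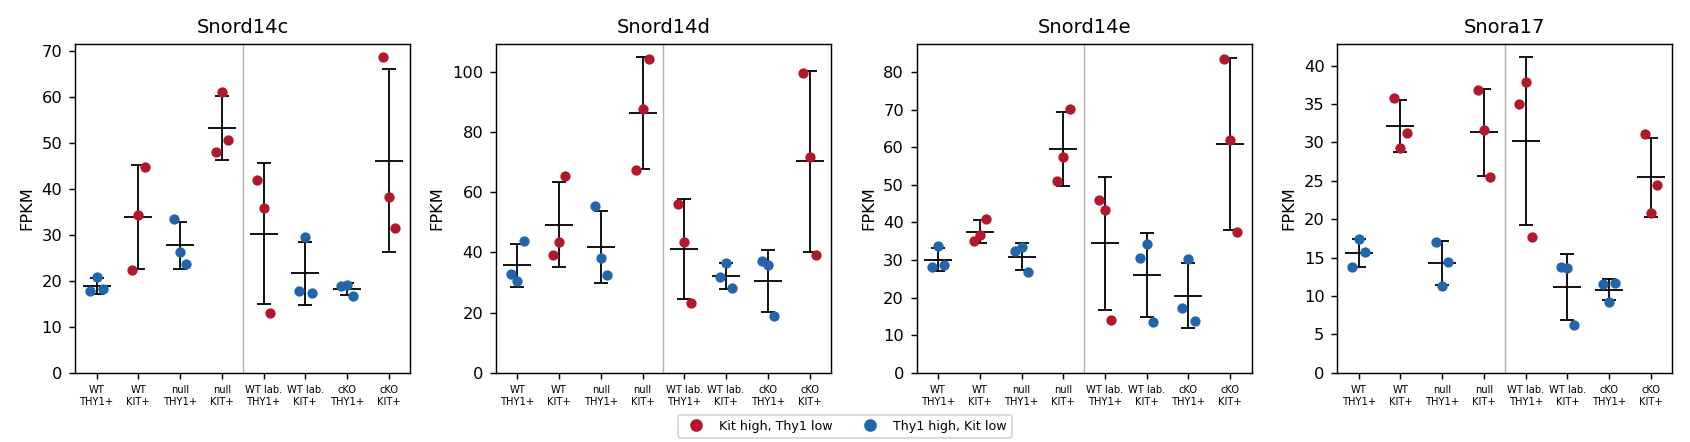
FPKM of Snord14c, Snord14d, Snord14e and Snora17 in each of the 24 libraries, by group, with the mean ± SD of 3. Red points are libraries with high Kit and low Thy1, blue points the reverse; Snora17 stands higher in each red group than in the blue group of the same genotype.

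Snord64 and Snord107 went the other way. In WT of the Zbtb16 set Snord64 was lower in KIT+ by a log2 change of -1.53 ± 0.41 (adjusted p = 0.0157) and in null by -1.56 ± 0.41 (adjusted p = 0.0102). Snord107 changed by -1.62 ± 0.52 (adjusted p = 0.0378) in WT, where the libraries overlapped, and by -2.73 ± 0.52 (adjusted p = 0.00167) in null. For the Sox3 WT libraries Snord64 read 5.62, 3.29 and 4.42 FPKM under the label THY1+ and 19.0, 16.01 and 13.8 FPKM under KIT+ (log2 change 1.87 ± 0.40, adjusted p = 0.00557). Snord107 had 2, 0 and 0 reads in those labelled THY1+. Against the FPKM of 3 reads per library (2.55 FPKM on average) it was at least 1.83-fold higher in those labelled KIT+, at 4.68 ± 1.80 FPKM. In cKO mice neither was called between the fractions (changes of -0.53 and -1.30, adjusted p = 0.351 and 0.224). These floors cover counting error only.

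The other calls in WT of the Zbtb16 set were higher in KIT+: Snord1c (0.82), Snora43 (0.76), Snord73a (0.76), Snord60 (0.71), Snora20 (0.65) and Snord57 (0.61), as log2 changes. In null mice Snora31 (1.12), Snora16a (0.84), Snora61 (0.70), Snora70 (0.67) and Snora81 (0.66) were higher and Snord89 (-0.91) and Snord1b (-0.79) lower. In cKO mice Snord123 (1.38), Snord83b (1.28), Snord8 (1.19), Snord42b (1.13), Snora61 (1.08), Snora74a (1.05) and Snora70 (1.05) led the remaining calls. Calls of null and cKO mice, which share no library, had 7 members in common, all in the same direction, which is 53.8% of the null and 41.2% of the cKO calls. Over all genes the calls shared in direction were 54.1% and 73.5%. Calls of WT and cKO mice, also without a shared library, had 2 members in common (Snora17 and Snord14c), 18.2% of the WT and 11.8% of the cKO calls, beside 62.8% and 61.9% over all genes.

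The counts depend on single libraries. The WT count of 11 fell to 4 without WT THY1+ replicate 1, to 7 without WT KIT+ replicate 1 and to 6 without WT KIT+ replicate 3, while the null count stayed at 13 to 16. The cKO count of 17 was 11 without cKO THY1+ replicate 2, 7 without cKO THY1+ replicate 3 and 6 without cKO KIT+ replicate 1, and with replicates 2 and 3 alone, the libraries with fewer reads, it was 3. In the Sox3 WT libraries 7 members were called, 3 higher and 4 lower in those labelled KIT+, beside 19.7% of all genes (13.1% higher, 6.53% lower). Higher were Snord64, Snord107 and Snord91a (0.88), and lower were Snord60 (-1.70), Snora17, Snora23 (-0.78) and Snord37 (-0.70). The count became 4 without the second and 15 without the third replicate labelled THY1+.

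Loss of SOX3 was compared over both fractions together, so that which WT group is which makes no difference. It called 6 members, 2 higher and 4 lower in cKO, beside 10.3% of all genes (7.49% higher, 2.83% lower). Snora78, the H/ACA snoRNA of Snhg9, stood at 52.7 to 58.2 and 64.7 to 101 FPKM in cKO THY1+ and KIT+ libraries, while WT libraries held 110 to 261 FPKM under the label THY1+ and 68.9 to 149 FPKM under KIT+. Its log2 change was -1.07 ± 0.23 (limma adjusted p = 0.00837). Snord52, Snord35b and Snord16a were lower, with log2 changes of -1.35, -1.01 and -0.66 (adjusted p = 0.0257, 0.0255 and 0.0118).

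Snora81, from the translation factor gene Eif4a2, was higher (0.64 ± 0.14, adjusted p = 0.00929), at 50.3 to 83.1 FPKM in cKO KIT+ libraries and 21.99 to 36.2 FPKM in the other 9. The call of Snord107 rests on the 0 to 2 reads of the WT libraries labelled THY1+. Cell type markers moved in the same comparison. All 6 germ cell markers were below 0 (median -0.43, 2 called lower), 8 of 8 Leydig markers above 0 (median 0.75, 4 called) and 8 of 9 Sertoli markers above 0 (median 0.60, 4 called), beside 52.7% of all genes above 0. Their part in these results was not tested. Without WT replicate 2 labelled THY1+, or without cKO THY1+ replicate 2, the count was 3, and with replicates 2 and 3 alone it was 2.

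As labelled, cKO against WT called 19 members in THY1+ (3 higher, 16 lower, beside 29.1% of all genes, 17.8% higher and 11.3% lower) and 14 in KIT+ (13 higher, 1 lower, beside 25.1%, 12.4% higher and 12.6% lower). These counts set libraries with opposite sorting markers against each other. Those with the largest log2 changes in THY1+ were Snord1c (-3.002, from 5, 0 and 2 reads in cKO), Snora78 (-1.70), Snord60 (-1.59), Snora17 (-1.40), Snord35b (-1.36), Snora64 (-1.18), Snora68 (-1.08), Snord85 (1.03) and Snord16a (-0.997), with Snord107 at least 2.15-fold higher. In KIT+ they were Snord64 (-1.54), Snora81 (1.29), Snora17 (1.25), Snord123 (1.23), Snord99 (1.201), Snord47 (1.09), Snora70 (1.05), Snord83b (1.01) and Snord8 (0.96), with Snora47 at least 2.40-fold higher (the bounds set 3 reads per library in WT). Without the third WT replicate labelled THY1+ the first count was 35 and without the second 9, and without cKO THY1+ replicate 2 or replicate 3 it was 12. The second count was 7 without WT replicate 3 labelled KIT+ or without cKO KIT+ replicate 1. Libraries with the same markers gave 0 calls for cKO THY1+ against WT labelled KIT+ (limma, beside 0.0707% of all genes). There 11 of 107 members had an unadjusted p under 0.05, beside 2793 of 21212 genes. For cKO KIT+ against WT labelled THY1+, also of like markers, 4 members were called, beside 17% of all genes (12.4% higher, 4.57% lower). Snora81 and Snord8 were higher (log2 changes of 0.996 and 1.005) and Snora78 lower (-1.24). The fourth, Snord107, was at 2.28 FPKM on average in cKO KIT+, under the 2.55 FPKM of 3 reads in the other group, so no fold is given. Without cKO KIT+ replicate 2 the count was 2. Snord64 was lower in all 3 cKO THY1+ libraries (5.42 to 10.1 FPKM) than in all 3 WT libraries labelled KIT+ (13.8 to 19.0 FPKM), and did not pass the test (log2 change -1.002 ± 0.40, limma adjusted p = 0.332). It is 1 of 8 members lower without overlap between these 2 groups, with 2 higher, beside 12% and 7.59% of all genes.

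A group of members was listed for roles in ribosomal RNA processing or small subunit maturation. Apart from the Snord14 genes it comprised Snord22, Snord118, Snord13, Snora62, Snora73a and Snora73b. None of these 6 was called in the genotype comparisons within a Zbtb16 fraction, in the fraction comparisons or in the averaged SOX3 comparison. The share of all genes called ran from 0.259% (null against WT in KIT+) to 29.2% (null fractions), so in the genotype comparisons 0 of 6 says little. Snora73a was higher in null KIT+ than null THY1+ libraries, at 1422 to 1479 against 1089 to 1255 FPKM (adjusted p = 0.04), with a log2 change of 0.33 that is under 1.5-fold. Snord118, the U8 snoRNA needed for the large subunit rRNAs, changed by 0.02 in WT and -0.44 in null mice between the fractions (adjusted p = 0.973 and 0.275).

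Most members lie inside other genes. GENCODE M21 placed 102 of 107 within a gene on the same strand, and 100 of these had a host with values, 72 hosts in all (2 matched by symbol only). Ribosomal protein genes hosted 31 members, in 24 genes. snoRNA FPKM was above that of the host for 36 members, and the median ratio was 0.62 (0.48 for C/D and 1.19 for H/ACA), from 0.02 for the lowest to 19.1 for Snora78 in Snhg9. These ratios set short genes against longer hosts, and capture by length was not measured, so they are not ratios of molecules.

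Changes of snoRNA and host went together in part. Across the 100 pairs Pearson's r of the log2 changes was 0.78 for null against WT in THY1+ uSPG, 0.48 without Snord64 and Snord107. For KIT+ against THY1+ it was 0.53 in WT, 0.70 in null and 0.51 in cKO mice, and 0.48 in the Sox3 WT libraries (0.30 without Snord64 and Snord107). Pairs share libraries, hosts and, inside exons, reads, and 48 members sit in hosts that hold more than 1. Among the 46 members with no host exon overlap r was 0.52 for null against WT in THY1+. For the fractions it was 0.31, 0.74 and 0.47 in WT, null and cKO mice and 0.18 in the Sox3 WT libraries. These members may still hold reads of unspliced host transcripts. In null mice 8 of the 12 called members with host values had a called host too, among them Snora31 (1.12) with Tpt1 (1.13) and Snora61 (0.70) with Snhg12 (0.64). The 4 whose change differed in sign from that of their host were Snord14c, Snord14d, Snord14e and Snord1b. Hspa8, the host of the Snord14 genes among them, was itself not called. Hosts were called for 0 of 9 in WT, 4 of 15 in cKO mice and 2 of 6 in the Sox3 WT libraries, by the same limma test. Of all genes, 29.2% were called in null, 21.2% in WT and 22.7% in cKO mice, and 19.7% in the Sox3 WT libraries.

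**Figure D5:**
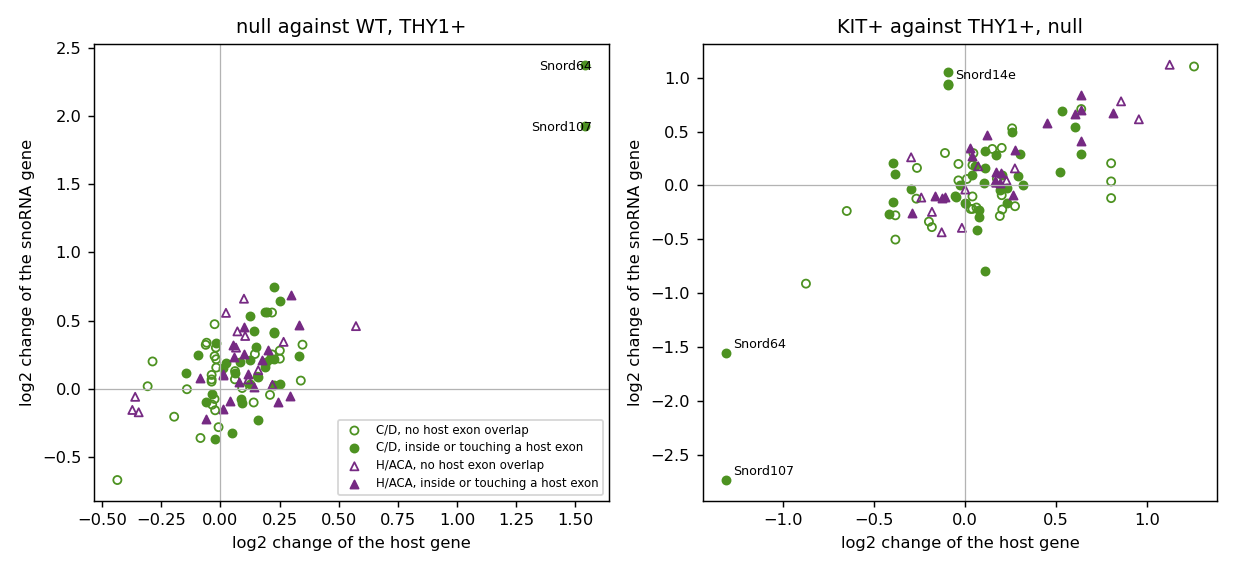
log2 change of each snoRNA against that of its host gene for null against WT in THY1+ uSPG (left) and KIT+ against THY1+ in null mice (right), 100 pairs each. Circles are C/D and triangles H/ACA members, filled where they touch an annotated exon of the host; Snord64 and Snord107 stand apart with Snrpn, and the Snord14 genes of Hspa8 lie high at a host change of -0.10.

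The proteins that bind snoRNAs gave no calls in the Zbtb16 set. Of the 4 C/D core proteins (Fbl, Nop56, Nop58 and Nhp2l1) and the 4 H/ACA core proteins (Dkc1, Nop10, Nhp2 and Gar1), 0 were called in the genotype or fraction comparisons of that set. Of all genes, 3.98% and 0.259% were called for genotype in THY1+ and KIT+, so 0 of 8 says little there. Between the fractions 21.2% were called in WT and 29.2% in null mice. Median log2 changes for null against WT in THY1+ were 0.06 and 0.26, and for KIT+ against THY1+ in WT 0.28 and 0.23. The median of all genes was -0.03 in both. In the averaged SOX3 comparison all 8 were below 0, beside 52.7% of all genes above 0, and Nhp2 was called lower (-0.63, adjusted p = 0.00337), beside 10.3% of all genes called. The germ cell markers, given above, were lower there too.

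Among 13 assembly and transport factors, Rpap3, a subunit of the chaperone complex that builds snoRNPs, was lower in KIT+ in WT (-0.71), null (-0.88) and cKO mice (-0.66) and higher in the WT libraries labelled KIT+ (0.84). It was the only 1 of the 13 called in each of these, beside 21.2%, 29.2%, 22.7% and 19.7% of all genes. Znhit6 was lower in the averaged SOX3 comparison (-0.64, limma adjusted p = 0.00261), again 1 of 13, beside 10.3% of all genes called. Of 8 genes for RNA polymerase I, which makes the ribosomal RNA precursor, only Polr1b in null mice was called among these comparisons (-0.62 in KIT+ against THY1+, limma adjusted p = 0.0263). This is 1 of 8, beside 29.2% of all genes called there.

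Non-coding host genes were fixed as a list of 13, of which 11 were tested. Between the fractions, 1 was called higher and 1 lower in KIT+ in WT, 2 and 1 in null and 4 and 0 in cKO mice, and 2 and 1 in the WT libraries labelled KIT+, beside 21.2%, 29.2%, 22.7% and 19.7% of all genes. Snhg7 was higher in KIT+ in WT (0.74), null (0.90) and cKO mice (0.88) and lower in the WT libraries labelled KIT+ (-0.69). Snhg12, host of Snora61, Snora16a, Snora44 and Snord99, was called in null (0.64) and cKO mice (0.87), and Gas5 (0.65) and Snhg5 (0.66) in cKO mice. Lower in KIT+ were Rian in WT (-0.67) and Snhg11 in null mice (-0.99). Rian (0.71) and Meg3 (0.74) were higher in the WT libraries labelled KIT+. In the averaged SOX3 comparison Rian (0.64) and Meg3 (0.99) were higher in cKO, 2 of 11 beside 10.3% of all genes. In null against WT, 0 of the 11 were called in either fraction by limma.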

How the data were processed

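The authors pooled testes of 3 mice per isolation, made stranded libraries after ribosomal RNA depletion, sequenced 50-base single reads, aligned them to mm10 with Novoalign (a read could be placed at up to 50 positions) and computed FPKM with USeq. The deposited values are FPKM, in 1 table per set. The counting strand, and whether a read overlapping a gene in part was counted, are not given in the sources used here. The authors tested counts with DESeq2. FPKM are not counts, so log2(FPKM + 0.1) was tested here with limma 3.58.1 (R 4.3.3; 4 group means, trend and robust eBayes, two-sided) over genes with a mean of at least 0.1 FPKM (22374 and 21212). Adjustment was by Benjamini-Hochberg within each comparison; a call needed an adjusted p of at most 0.05 and 1.5-fold. Fold changes are on this scale, which understates low genes.

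Reads were recovered from FPKM steps with GENCODE M21 lengths: values were whole (within 0.05) in every library for 105 (Zbtb16) and 106 (Sox3) of 107 members. Library depths above come from the same steps. All members matched the annotation by ID. Hosts are genes containing the member on its strand. Sequences were aligned with Biopython 1.88.

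Groups came from GEO labels alone. The libraries' replicates are separate samples; nothing more is stated. Members, lists and tests were chosen with earlier results of these data known. Named genes are the 5 highest of each class, rRNA processing families, all genotype calls (the 10 largest where more), the 5 largest calls each way per fraction comparison, calls shared by fraction comparisons, the Snrpn pair, their hosts and fixed protein and host lists; other called members were named after their values were seen. Alternatives changed the pseudocount, filter, centring, libraries fitted, replicate block and members; the fit on Sox3 replicates 2 and 3 alone was chosen after seeing the data. The limma script was tested on simulated data.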

Additional observations from a re-analysis of the deposited data

Results flagged for a closer look

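In the Sox3 set, 8 members moved in opposite directions in the fractions as labelled, with every cKO library below every WT library in THY1+ and above every WT library in KIT+. Taking the log2 change in THY1+ from that in KIT+ gave 2.65 for Snora17, 2.11 for Snora43, 1.63 for Snora68, 1.61 for Snora23, 1.48 for Snord42b, 1.22 for Snora33, 1.19 for Snora52 and 1.1 for Snora65. Of the 8, 7 are H/ACA snoRNAs. Of all genes, 24.5% were lower without overlap in THY1+ and 21.7% were higher without overlap in KIT+. The share of all genes with both was not counted, so the 8 are not set against it. The difference in log2 change was not tested. The sorting markers of the WT libraries go against their labels, so both comparisons set libraries with opposite markers against each other.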

How the results depend on the processing

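Counts of called members moved with the fit more than their directions did. With a pseudocount of 1, null against WT gave 2 calls in THY1+ and 0 in KIT+; with library medians centred it gave 2 in THY1+. With only the compared groups fitted, the counts were 2 and 0, 7 for WT KIT+ against THY1+ and 4 for the Sox3 WT libraries. With Sox3 replicates 2 and 3 alone, they were 2 (averaged SOX3 effect), 3 (cKO fractions), 6 (cKO against WT in KIT+ as labelled) and 1 (cKO KIT+ against WT labelled THY1+).

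Leaving out 1 library in turn gave 1 to 2 calls for null against WT in THY1+, 0 to 1 in KIT+ and 0 to 1 for the interaction. It gave 4 to 13 for the WT and 13 to 16 for the null fractions, 3 to 8 for the averaged SOX3 effect, 6 to 21 for the cKO and 4 to 15 for the Sox3 WT fractions. As labelled, cKO against WT gave 9 to 35 in THY1+ and 7 to 19 in KIT+; groups with like markers gave 0 and 2 to 6. Other causes of these shifts were not tested.

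Replicate numbers were not taken as pairing: 16 of 18 same-numbered pairs correlated above 0.1 in the Zbtb16 table and 14 of 18 in the Sox3 table (means 0.400 and 0.171), and 11 and 9 of 12 libraries correlated best with their own number. With the number as a replicate block, calls were 4 and 5 for null against WT in THY1+ and KIT+ and 3 for the interaction (Snord1b and Snord57 lower, Snord14e higher). They were 26 for the cKO fractions, 13 for the Sox3 WT fractions, 33 and 22 for cKO against WT as labelled and 11 for cKO KIT+ against WT labelled THY1+. Other counts stayed within 1.5 times. The counts of this section are given without the share of all genes called in the same fits, so members are not set against all genes here. Depth limits the members with few reads, 13 of 107 under a mean of 10 in the Sox3 set.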

Other observations

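Snord13, a C/D snoRNA that guides acetylation of the small subunit rRNA, was picked after its values were seen, for its spread between replicate numbers of the Sox3 set. Its WT values were 7.84, 45.2 and 12.1 FPKM under the label THY1+ and 4.39, 19.98 and 12.3 FPKM under KIT+. It stood at 2.61, 15.7 and 11.2 FPKM in cKO THY1+ libraries. In cKO KIT+ it was at 5.11, 7.31 and 6.499 FPKM. Replicate 1 was the lowest of each group and is also the most deeply sequenced there. In the Zbtb16 set Snord13 ranged from 18.3 to 57.7 FPKM.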
